A study of Homo sapiens with 2 samples.

Results

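The 4 human alkaline phosphatase genes, ALPG, ALPP, ALPI and ALPL, were examined in HepG2 cells, a human hepatocellular carcinoma line, after loading with free fatty acids (FFAs). They are the complete family, 4 of 60623 gene entries in the count tables. The family was chosen by the value of ALPG, whose difference between the libraries was among the largest of all genes, and the other members were added by symbol, so the differences below are a description and not independent evidence. RNA sequencing covered 2 groups with 1 library each. The FFA group received 1 mM FFA (oleic and palmitic acid bound to albumin) for 24 h. The FFA + 9-cis-RA group, called the treated library below, received the same FFA and 9-cis-RA at 10 μM for 24 h. This vitamin A derivative, in full 9-cis-retinoic acid, is a ligand of the RXR and RAR nuclear receptors. The study's methods place it after the FFA, while its results describe co-treatment, so the total culture time of the 2 groups is not certain. Both groups carry the genotype label WT and the same batch label, and both were loaded with FFA, so no comparison with unloaded cells is made here.

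Alkaline phosphatases are zinc- and magnesium-dependent enzymes that remove phosphate groups from extracellular substrates at alkaline pH. They are tethered to the outer face of the plasma membrane by a glycosylphosphatidylinositol (GPI) anchor. ALPL encodes the tissue-nonspecific form of liver, bone and kidney, which breaks down pyrophosphate and pyridoxal phosphate. ALPI encodes the form of the intestinal brush border, ALPP that of the placenta, and ALPG (formerly ALPPL2) a germ cell form that closely resembles the placental one. Serum alkaline phosphatase activity is a routine clinical measure of bile duct and bone disease.

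Both libraries were deep and hepatocyte-like. They held 60821539 counts (FFA) and 57669670 counts (treated), where a count is 1 sequenced fragment assigned to 1 gene. All 10 hepatocyte markers examined were above the count minimum, and their levels summed to 20704 CPM (counts scaled to a fixed library total) in the FFA library against 17629 in the treated one, with SERPINA1 the highest. As a check of the treatment label, CYP26A1, a retinoic acid hydroxylase gene induced by retinoids, had 4 and 709 counts, and RARB, a retinoic acid receptor gene, had 6 and 46. CRABP2, which encodes a retinoic acid carrier, had 16 and 6 counts, and its counting interval included 0 (-3.03 to 0.040). Among the 9 retinoid response genes, 2 were above 1 and 1, CRABP2, below -1 on the log2 scale, with a median log2 fold change of 0.73. Of all genes whose 2 counts summed to 10 or more, 3.37% were above 1 and 4.9% below -1. Counting intervals were above 0 for 6 of the 9 and below 0 for 1, against 22.5% and 25.7% of all these genes. The one below was TGM2, which had the most counts of the list, 5587 and 4318, at -0.34 (-0.40 to -0.29). Neither group has a second library, and the text therefore gives no p-value and no SD. Intervals are exact, at 95%, and take in counting error alone. They set 1 library against the other, not 1 condition against the other.

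Of the 4 genes, 3 form a cluster on chromosome 2 and ALPL stands alone on chromosome 1. On GRCh38, in the deposited gene models, ALPP (ENSG00000163283) spans chr2:232378724-232382889, ALPG (ENSG00000163286) chr2:232406844-232410714 and ALPI (ENSG00000163295) chr2:232456125-232460753. ALPL (ENSG00000162551) spans chr1:21509397-21578410, and all 4 are on the plus strand. A gap of 24.0 kb separates ALPP from ALPG, and one of 45.4 kb separates ALPG from ALPI. No exonic base of any member is overlapped by another gene on the same strand. An antisense gene covers 22.0% of the ALPP exonic bases on the other strand; it had 0 counts in both libraries, and the counting was strand-specific.

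The clustered genes are close copies of one another. The coding sequences of ALPG and ALPP, compared as their main GENCODE release 29 transcripts, were identical at 97.8% of 1596 aligned bases, with 35 differences. ALPG and ALPI were identical at 89.5% of aligned coding bases, ALPP and ALPI at 89.7%, and ALPL matched the others at 65.2% to 66.2%. The longest run without a difference between ALPG and ALPP was 339 coding bases, in which ALPI differed at 49. This bears on the counts, because fragments that map equally well to several places were not counted. To show it, the whole of exon 9 is given below on the plus strand from GRCh38, at chr2:232408921-232409112 in ALPG, chr2:232380840-232381031 in ALPP and chr2:232458217-232458408 in ALPI. All 192 bases are the same in ALPG and ALPP, and capitals mark the 19 bases of ALPI that differ from them.
ALPG: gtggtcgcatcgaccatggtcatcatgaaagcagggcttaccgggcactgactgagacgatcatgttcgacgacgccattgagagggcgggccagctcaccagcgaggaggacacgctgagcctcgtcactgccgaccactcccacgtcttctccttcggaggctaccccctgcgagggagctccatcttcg
ALPP: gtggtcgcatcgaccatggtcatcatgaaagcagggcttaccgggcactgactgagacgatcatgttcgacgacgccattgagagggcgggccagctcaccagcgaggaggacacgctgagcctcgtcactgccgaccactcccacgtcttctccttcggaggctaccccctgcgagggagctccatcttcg
ALPI: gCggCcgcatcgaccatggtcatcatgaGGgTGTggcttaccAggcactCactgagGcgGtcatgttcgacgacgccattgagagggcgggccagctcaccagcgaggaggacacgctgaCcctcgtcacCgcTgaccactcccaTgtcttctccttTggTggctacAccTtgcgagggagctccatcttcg

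The share of sequence that cannot be assigned was computed for a range of read lengths, since the read length is not given in the sources used here. Of all 50-base windows of the ALPG transcript, 29.3% also occurred in the ALPP transcript. This share was 15.8% at 100 bases and 8.49% at 150 bases. For ALPP, the share found in any other member was 25.4%, 13.2% and 7.05% at these lengths. ALPI shared 1.52% of its 50-base windows and none of its 100-base windows, and ALPL shared none at any length tested. How many fragments of ALPG and ALPP were left uncounted in this way was not measured. Windows were compared among the 4 main transcripts only, not with the rest of the genome, and a mate in a distinct stretch can place a fragment that these windows count as shared.

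**Figure D1:**
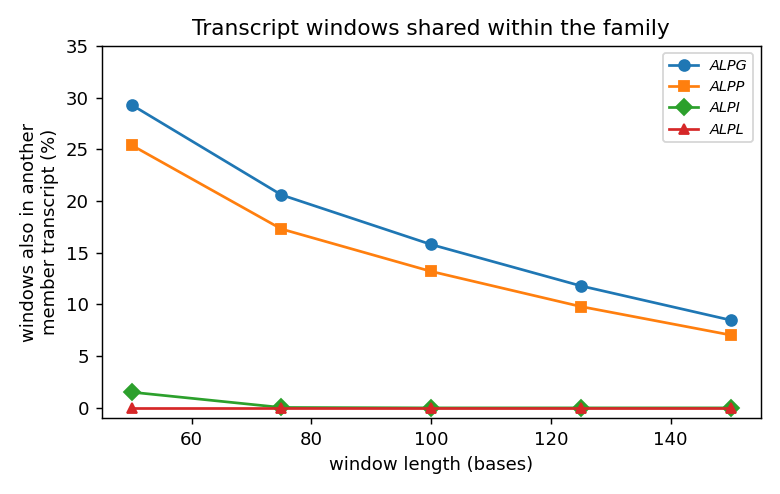
Share of windows of each member's main transcript that also occur without a mismatch in the transcript of another member (y axis, %), against window length (x axis, bases). ALPG and ALPP fall from 29.3% and 25.4% at 50 bases to 8.49% and 7.05% at 150 bases, while ALPI and ALPL lie at or near 0.

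The upstream sequences of the clustered genes also resemble each other. Over the 250 bases before the RefSeq start site, ALPG and ALPP were identical at 88.5% of aligned bases, and ALPI matched them at 71.9% and 71.5%. The sequences are printed here because RXR and RAR bind DNA at repeats of a 6-base half-site. The search covered AGGTCA first, then the variant AGTTCA, then the variant GGGTCA, and lastly the variant GGTTCA. Both strands were read, and capitals mark every match. The windows are from RefSeq on GRCh38.p14, plus strand, at chr2:232406594-232406843 for ALPG, chr2:232378501-232378750 for ALPP, chr2:232455903-232456152 for ALPI and chr1:21509173-21509422 for ALPL. For ALPL the table holds 3 start sites, and the one nearest to the first deposited exon is shown. The RefSeq starts of ALPP, ALPI and ALPL lie slightly inside the deposited gene models, so the last bases of these windows fall within them.
ALPG: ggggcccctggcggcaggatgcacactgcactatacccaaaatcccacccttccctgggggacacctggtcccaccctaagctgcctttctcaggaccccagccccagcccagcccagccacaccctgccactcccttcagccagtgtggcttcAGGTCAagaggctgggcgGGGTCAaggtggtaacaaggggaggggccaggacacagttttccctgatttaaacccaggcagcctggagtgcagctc
ALPP: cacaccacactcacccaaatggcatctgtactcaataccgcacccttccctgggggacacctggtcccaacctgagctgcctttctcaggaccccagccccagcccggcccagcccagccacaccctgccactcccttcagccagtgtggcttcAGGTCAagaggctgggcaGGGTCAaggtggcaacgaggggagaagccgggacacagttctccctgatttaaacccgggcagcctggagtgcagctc
ALPI: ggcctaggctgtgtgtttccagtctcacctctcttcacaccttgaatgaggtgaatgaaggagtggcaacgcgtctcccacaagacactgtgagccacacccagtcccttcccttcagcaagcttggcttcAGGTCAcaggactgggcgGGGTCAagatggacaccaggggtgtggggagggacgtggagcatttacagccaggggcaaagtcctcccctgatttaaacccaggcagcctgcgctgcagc
ALPL: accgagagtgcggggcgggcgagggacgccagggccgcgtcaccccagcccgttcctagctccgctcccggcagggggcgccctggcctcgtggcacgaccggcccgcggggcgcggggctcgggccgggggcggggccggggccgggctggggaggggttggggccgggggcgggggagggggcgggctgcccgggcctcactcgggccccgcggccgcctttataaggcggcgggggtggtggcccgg

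Each of the 3 clustered genes held 2 half-sites on the plus strand, AGGTCA followed by GGGTCA with 12 bases between them. Counted from the start site, they began at -96 and -78 in both ALPG and ALPP, and at -119 and -101 in ALPI. ALPL had no match in its window, which says only that these letters are not in these 250 bases. Of all 35116 RefSeq windows of this length, 33.8% held at least 1 such half-site and 7.8% at least 2. A pair on 1 strand exactly 12 bases apart, a spacing chosen after it was seen, occurred in 17 windows (0.0484%), of which 3 are those of ALPG, ALPP and ALPI. Retinoid receptors are known to prefer spacings of 1 to 5 bases, and 0.339% of windows held such a pair, the 4 members not among them. The letters TTTAAA, a variant of the TATA box, began at -30 in ALPG and ALPP and at -28 in ALPI, and 11.3% of windows contain them. They lie within the longest run common to the 3 upstream windows, ccctgatttaaaccc, which no other window of the table contained. A GC content of 83.6% set the ALPL window apart from the others, at 58.4% to 63.2%. These matches are a description of the letters, and binding was not measured here.

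ALPG showed the largest difference of the family. It held 32 counts with FFA alone (95% interval 21.9 to 45.2) and 420 in the treated library (381 to 462), and the 2 intervals do not overlap. After division by size factors, which correct for depth, these were 31.7 and 424 normalized counts. The log2 fold change, taken as FFA + 9-cis-RA over FFA after adding a pseudocount of 1, was 3.70 (95% interval 3.22 to 4.31), or 13.0-fold. It was number 5 from the top among 20431 compared genes, those whose 2 counts summed to 10 or more. This rank is part of what led to the choice of the family. Intervals of log2 fold changes, here and elsewhere, were taken without the pseudocount that the values themselves include.

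ALPP, the placental form, held 5 counts with FFA alone and 33 with 9-cis-RA. Its count intervals, 1.62 to 11.7 and 22.7 to 46.3, did not overlap either. The log2 fold change was 2.53, with a wide interval of 1.38 to 4.46 that reflects the few counts. In absolute terms the difference was small, 28.4 normalized counts against 392 for ALPG. Given the sequence that the pair shares, its value is uncertain.

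ALPI, the intestinal form, had the most counts of the family in the FFA library. It held 207 there (180 to 237) and 285 in the treated library (253 to 320). The log2 fold change was 0.49 (0.23 to 0.75), or 1.40-fold, and 90.7% of compared genes had a lower one. Such a difference is within the central 95% of all compared genes, which ran from -1.35 to 1.12.

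ALPL, the form of normal liver, was close to the detection floor in both libraries. It held 12 counts with FFA alone (6.20 to 21.0) and 15 in the treated library (8.40 to 24.7), and these intervals overlap. The log2 fold change of 0.33 had an interval from -0.84 to 1.58, so no difference was detectable at this depth, and the interval leaves out only changes beyond its bounds. The counts were above the 3 counts set as a detection floor, equal to 0.0493 CPM and 0.0520 CPM in the 2 libraries.

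All 4 genes passed the count minimum and all had a log2 fold change above 0. Of them, 2 were above 1 (ALPG and ALPP), where 3.37% of all compared genes were, and none was below -1, where 4.9% were. The counting interval was above 0 for 3 of the 4, against 22.5% of compared genes, and below 0 for none, against 25.7%. The whole interval was above 1 for ALPG and ALPP, as for 0.387% of compared genes. The median over the 4 members was 1.51, beside -0.020 over all compared genes. Since the family was chosen with these differences in view, nothing is read from these shares.

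**Figure D2:**
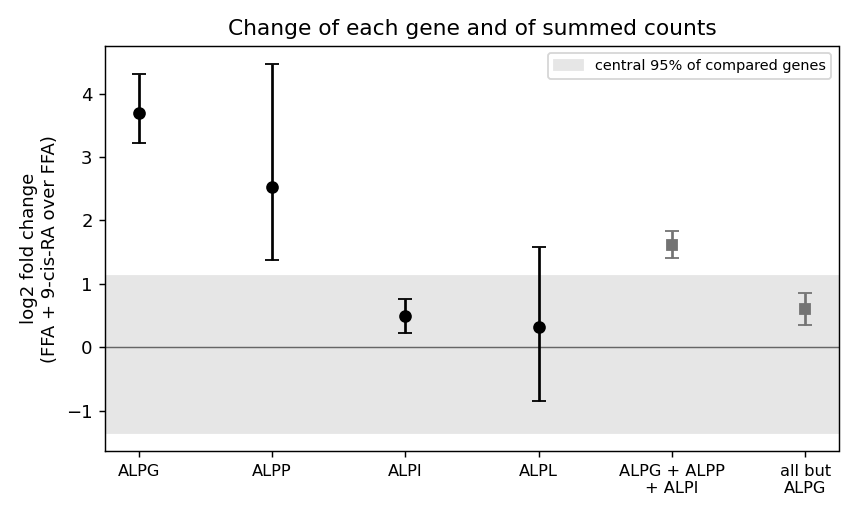
Log2 fold change (y axis, FFA + 9-cis-RA over FFA) of each member (circles) and of summed counts (squares), with exact 95% counting intervals, 1 library per group. The grey band holds the central 95% of the 20431 compared genes; ALPG at 3.70 and ALPP at 2.53 lie above it with their whole intervals, while ALPI at 0.49 lies inside it and ALPL at 0.33 has an interval that reaches past 0.

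**Figure D3:**
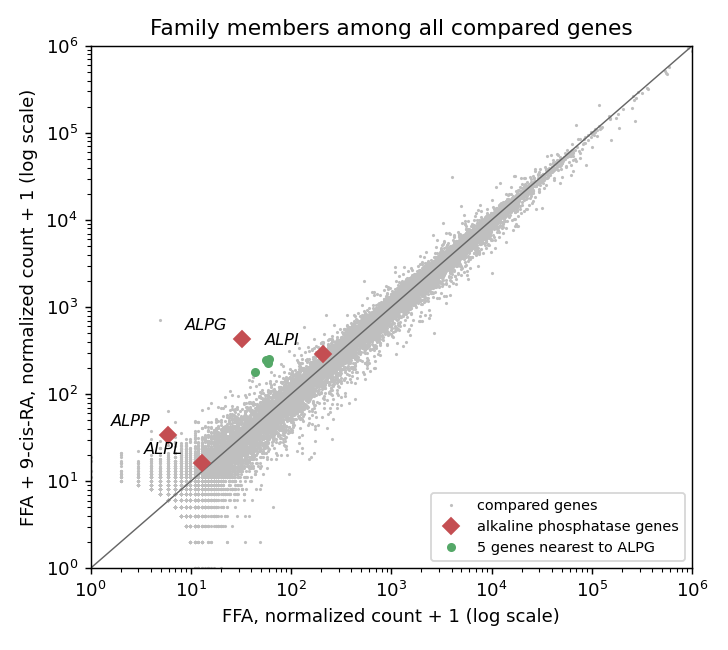
Normalized counts plus 1 in the FFA library (x axis, log scale) and in the treated library (y axis, log scale) for all compared genes (grey), the 4 family members (red) and the 5 genes nearest to ALPG (green); the line marks equal counts. ALPG, at 31.7 and 424 normalized counts, and ALPP lie well above the line, whereas ALPI and ALPL lie close to it.

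The order of the genes, compared per length as TPM (counts divided by the deposited gene length and scaled to a fixed total), differed between the libraries. In the FFA library, ALPI was highest at 2.94 TPM (95% interval 2.56 to 3.37), followed by ALPG at 0.612 TPM (0.419 to 0.864), ALPL at 0.192 TPM (0.0991 to 0.335) and ALPP at 0.0830 TPM (0.0270 to 0.194). ALPI exceeded ALPG by a wide margin there, with an ALPG to ALPI ratio of 0.208 (0.139 to 0.303). The last neighbours in this order, ALPL and ALPP, could not be separated, as their ratio of 0.433 (ALPP over ALPL) had an interval from 0.119 to 1.32.

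In the FFA + 9-cis-RA library ALPG was the highest member, at 8.71 TPM (7.90 to 9.59). ALPI came next at 4.40 TPM (3.90 to 4.94), so that ALPG stood at 1.98 times the ALPI level (1.70 to 2.31). ALPP followed at 0.595 TPM (0.409 to 0.835) and ALPL last at 0.260 TPM (0.146 to 0.429), with an ALPP to ALPL ratio of 2.29 (1.21 to 4.53). The intervals of neighbours in this order did not include equality. The uncounted shared fragments bear on the levels of ALPG and ALPP in both libraries. These levels, and the shares below, also depend on the gene length used. The deposited length of ALPI is 3351 bases, against 2550 for its main transcript. For ALPG the 2 lengths are 2492 and 2493. A shorter length for ALPI would raise its level beside that of ALPG, and the intervals do not cover this.

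Expressed as shares of the summed TPM of the family, ALPI made up 76.8% in the FFA library and 31.5% in the treated library. ALPG went from 16.0% to 62.4%, ALPP from 2.17% to 4.26%, and ALPL from 5.01% to 1.86%. The summed level was 3.83 TPM and 14.0 TPM. None of the members was abundant: the median compared gene stood at 6.51 TPM in the FFA library and 6.77 TPM in the treated library. ALPG lay above 18.1% of compared genes in the FFA library and above 54.1% in the treated library, while ALPL lay above only 7.29% and 9.84%.

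**Figure D4:**
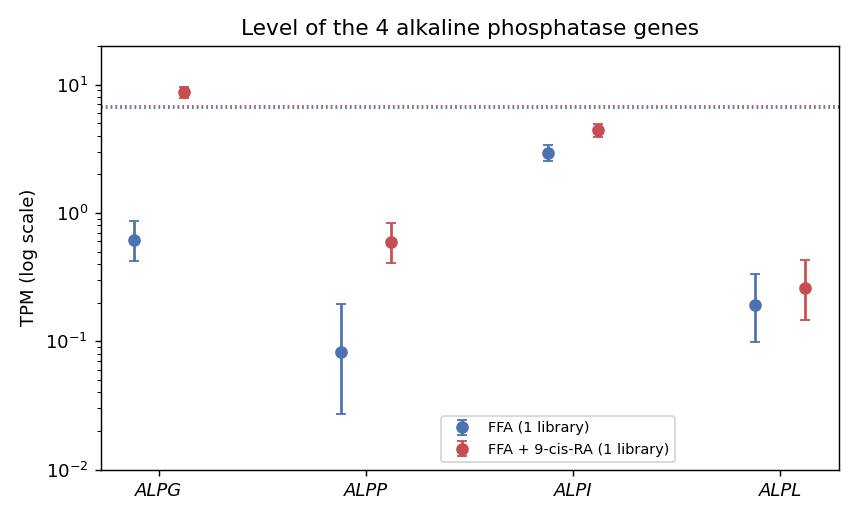
Level of each member in TPM (y axis, log scale) in the FFA library (blue) and the FFA + 9-cis-RA library (red), with exact 95% counting intervals and 1 library per group; dotted lines mark the median compared gene. ALPI is the highest member at 2.94 TPM in the FFA library and ALPG at 8.71 TPM in the treated library, above the median gene.

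Changes of 1 member relative to another do not depend on scaling. They were taken as the log2 odds ratio of the counts over the 6 pairs, without a pseudocount. ALPG was higher relative to ALPI by 3.25 (95% interval 2.66 to 3.88), and relative to ALPL by 3.38 (2.03 to 4.71). For ALPP the values were 2.26 (0.86 to 4.0) relative to ALPI and 2.36 (0.47 to 4.47) relative to ALPL. The ALPG difference was larger than that of ALPP by 0.99, but the interval of -0.82 to 2.49 includes 0. ALPI relative to ALPL was at 0.14 (-1.12 to 1.37), which also includes 0.

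Assignment between the near-identical genes does not matter for their sum. The counts of ALPG, ALPP and ALPI together were 244 and 738, a log2 fold change of 1.62 (1.41 to 1.84). For ALPG and ALPP together they were 37 and 453, with a log2 fold change of 3.61 (3.16 to 4.17). Without ALPG the other 3 genes summed to 224 and 333 counts, with a log2 fold change of 0.60 (0.35 to 0.85). Fragments left out because they fit several copies are missing from these sums as well.

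Of the genes around the cluster, 8 could be compared and 1 differed by more than 1 on the log2 scale. Within 250 kb of ALPP, ALPG or ALPI lay 21 other entries, of which 8 had 0 counts in both libraries and 8 passed the count minimum. ECEL1, a neuronal endopeptidase-like gene that is the next protein-coding gene after ALPI, had 0 counts in both, which allows up to 3 counts in each. The 8 compared neighbours had a median log2 fold change of 0.062. Of them, 1 was above 1 and none below -1, where 3.37% and 4.9% of all compared genes were. With so few genes, little can be read from this count. Counting intervals were above 0 for 4 and below 0 for 2, against 22.5% and 25.7% of all compared genes. The neighbour above 1 was NRBF2P6, a processed pseudogene upstream of ALPP, with 10 and 34 counts at 1.70 (0.74 to 2.98). Pseudogenes can share reads with their parent gene, and NRBF2P6 also lies within the span of DIS3L2 on the same strand. Its count is therefore uncertain. DIS3L2, an exoribonuclease gene, was at 0.21 (0.11 to 0.31).

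On the other side, PRSS56, a serine protease gene, was at -0.60 from 158 and 102 counts (-0.98 to -0.24). CHRND, a muscle acetylcholine receptor subunit gene, had 19 and 12 counts and an interval that included 0 (-1.81 to 0.48). TIGD1, derived from a transposable element, was at -0.47 (-0.63 to -0.32). EIF4E2 and GIGYF2, whose products act together in translational repression, were at 0.096 (0.044 to 0.15) and 0.11 (0.057 to 0.17). EFHD1, a calcium-binding protein gene, had 29 counts in each library, a log2 fold change of 0.027 (-0.77 to 0.82).

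**Figure D5:**
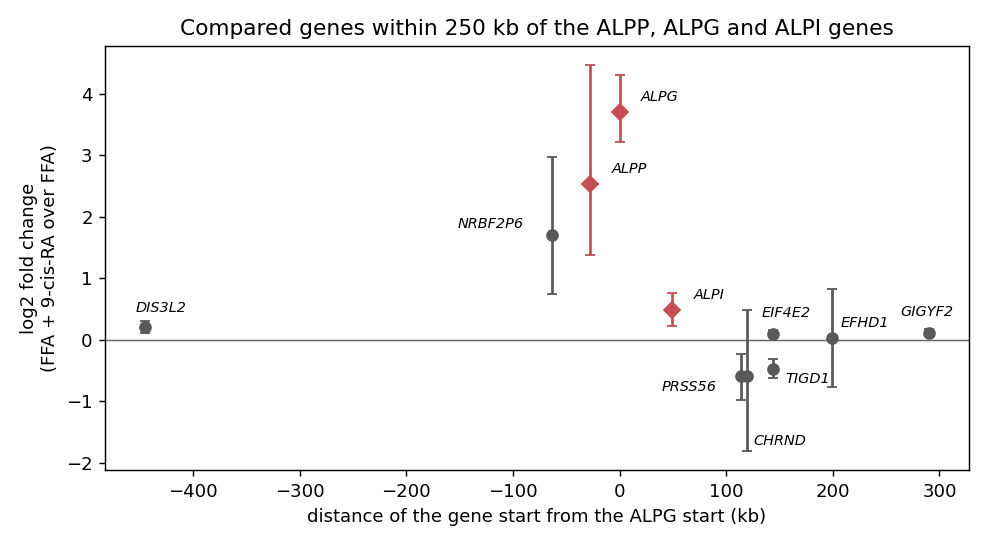
Log2 fold change (y axis, with exact 95% counting intervals, 1 library per group) of the compared genes near the cluster against the distance of their start from the ALPG start (x axis, kb). The cluster members are red diamonds; ALPG, ALPP and the pseudogene NRBF2P6 are above 1, and the other compared neighbours lie between -0.60 and 0.21.

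The machinery that builds and attaches the anchor of these enzymes showed no difference past 1 in either direction. Among all compared genes only 3.37% were above 1 and 4.9% below -1, so little can be read from this. Of 30 genes for GPI anchor synthesis, attachment and remodelling, 28 had enough counts to be compared, with a median of 0.046, 10 counting intervals above 0 (22.5% of all compared genes were) and 4 below (25.7%). The largest difference was that of PIGP, a subunit of the enzyme that starts anchor synthesis, with 795 and 575 counts and a log2 fold change of -0.44 (-0.60 to -0.28). PIGH, another subunit of the same complex, was at 0.41 (0.32 to 0.51).

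Genes of other GPI-anchored surface proteins were mostly between -1 and 1, as most compared genes were. Of 39 listed genes, 25 were compared, with a median log2 fold change of -0.11. Of these, 1 was above 1 and 1 below -1, near the shares of all compared genes, 3.37% and 4.9%. Counting intervals were above 0 for 6 and below 0 for 10, where 22.5% and 25.7% of all compared genes were. The one above 1 was GPC6, a glypican gene, with 21 and 72 counts and a log2 fold change of 1.76 (1.09 to 2.58). ULBP1, which encodes a ligand of the NKG2D receptor, was at -1.04, from 20 and 9 counts (-2.44 to 0.076, including 0).

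Genes of the reactions around alkaline phosphatase had list medians below that of all compared genes, which was -0.020. For the first list the gap was small. Of 18 genes of phosphate, pyrophosphate and mineralization, 14 were compared and none passed 1 in either direction, with a median of -0.046. Only 3.37% of all compared genes were above 1 and 4.9% below -1, so little can be read from this. Counting intervals were above 0 for 3 of the 14 and below 0 for 4, against 22.5% and 25.7%. SPP1, which encodes the matrix phosphoprotein osteopontin, was at -0.91 from 158202 and 82857 counts (-0.92 to -0.89). In vitamin B6 metabolism all 5 genes were compared, and 4 had intervals below 0, against 25.7% of all compared genes, the largest difference being -0.36 (-0.72 to -0.021) for PDXP, a pyridoxal phosphate phosphatase gene. Of 16 genes of extracellular nucleotide breakdown, 14 were compared, with a median of -0.39, 2 intervals above 0 and 6 below, where 22.5% and 25.7% of all compared genes were. The 2 above were those of ENPP2, the autotaxin gene, at 0.41 (0.25 to 0.57) and ADA, the adenosine deaminase gene, at 0.16 (0.049 to 0.27). The one below -1, ADA2, an extracellular adenosine deaminase gene, had 10 and 3 counts and an interval that included 0 (-4.21 to 0.25).

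The acid phosphatases, which remove phosphate at low pH, had 1 gene below -1, where 4.9% of all compared genes were. None was above 1, where 3.37% were. Of 7 genes only 4 were compared, with a median of 0.025, so little can be read from this count. ACP5, the tartrate-resistant acid phosphatase of osteoclasts and macrophages, held 4472 counts with FFA alone and 2069 with 9-cis-RA, or -1.08 as log2 fold change (-1.16 to -1.01).

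Because ALPG, ALPP, ALPI and ALPL are each known from other tissues, markers of those tissues were examined in the same libraries. Of 14 trophoblast markers, 5 had 0 counts in both libraries, among them CGA, ERVW-1 and ERVFRD-1, and 5 had fewer than 10 counts in all. Their summed level was 29.4 CPM and 36.0 CPM, nearly all of it from CYP19A1, the aromatase gene; without it the sums were 1.09 CPM and 1.08 CPM. KISS1, above 1 at 1.14, had 5 and 12 counts and an interval that included 0 (-0.32 to 3.15). CYP19A1 itself was at 0.25 (0.16 to 0.35), and PSG1, a pregnancy-specific glycoprotein gene, had 38 and 30 counts. Both libraries come from the HepG2 line, and any link of these markers to the ALPG and ALPP values was not tested.

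Of 12 germ cell markers, 3 had 0 counts in both libraries, including SOX17 and DPPA3, and 2 were compared, at a median of -0.32. Their summed level was 3.49 CPM and 4.21 CPM, mostly from POU5F1, which has pseudogenes, and without it 0.181 CPM and 0.347 CPM. Of 10 osteoblast markers, 3 were at 0 in both libraries, including SP7 and IBSP, and 3 were compared, with a median of -0.067. The summed osteoblast level was 53.8 CPM and 59.2 CPM.

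Among 12 enterocyte markers, SI and CDX1 had 0 counts in both libraries and 8 were compared, with a median of -0.83. Their summed level was 551 CPM and 554 CPM, led by VIL1, which encodes the brush border protein villin. Without VIL1 the sums were 195 CPM and 182 CPM, nearly all of it from ANPEP, an aminopeptidase gene, at 182 CPM and 176 CPM. Of the 8 compared markers, 3 were below -1, where 4.9% of all compared genes were, and 1 was above 1, where 3.37% were. Those below included MEP1A, a brush border protease gene, at -1.53 (-1.83 to -1.25). Another, MUC2, had 11 and 4 counts and an interval that included 0 (-3.54 to 0.32). CDX2, an intestinal transcription factor gene, was higher in the treated library, as ALPI was, at 1.93 (0.41 to 4.69) from 3 and 14 counts. Its part in the ALPI result was not tested. Of 10 macrophage, fibroblast and endothelial markers, 3 were at 0, including PTPRC, and the summed level was 2.63 CPM and 1.89 CPM. PECAM1, an endothelial adhesion molecule gene, was the highest, at -0.79 (-1.52 to -0.13) from 52 and 29 counts. The one above 1 was CD68, a macrophage marker, at 1.44 (0.079 to 3.43) from 5 and 15 counts. In a bulk library, fewer or more expressing cells and less or more RNA per cell cannot be told apart. Nor can 9-cis-RA and any other way in which the 2 cultures differed, since each group is a single library.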

How the data were processed

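Poly(A) RNA libraries, stranded, were made from HepG2 cells, 1 per group. Per the file headers, the counts deposited are unnormalized and come from featureCounts version 2.0.1, which required both mates to align, checked the fragment length and read the reverse strand (strand setting 2). A fragment was dropped if it aligned to more than 1 place or touched more than 1 gene, which lowers the counts of near-identical genes. The build is GRCh38 in the submitters' processing notes; the aligner, annotation release and read length are not given in the sources used here. The study's methods name DESeq2.

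Of 60623 entries, 42005 had a symbol and 58516 were found in GENCODE release 29. Counts were divided by DESeq2 version 1.42.0 size factors in R version 4.3.3. The log2 fold change used a pseudocount of 1, which understates the change of low genes, over 20431 genes whose 2 counts summed to 10 or more. Intervals are exact (Clopper-Pearson for ratios, Poisson for counts, conditional for odds ratios; scipy version 1.17.1) and cover counting error only. TPM used the deposited gene lengths. Sequences came from RefSeq (upstream windows) and GENCODE (transcripts), aligned globally with Biopython version 1.88. The exon shown and the spacing of the half-sites were picked with the sequences in view. Interval and fold calculations were tested on simulated data.

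The members and the 13 gene lists were chosen with earlier results of these data known. Genes named were the members, compared neighbours within 250 kb, list members past 1 or the one with the largest difference, the marker of each list with the most counts, and the 5 genes nearest to ALPG; other named genes were picked after their values were seen, and some items that this rule names are not reported here. Alternatives were edgeR version 4.0.16 TMM factors, total counts, pseudocounts of 0.1 and 5, other minimums, protein-coding genes, whole intervals past 1 and summed copies.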

Additional observations from a re-analysis of the deposited data

How the results depend on the processing

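The directions of the 4 members held under TMM factors, total counts and pseudocounts of 0.1 and 5. Over these, the log2 fold change of ALPG ran from 3.55 to 3.75, that of ALPP from 1.94 to 2.73, that of ALPI from 0.48 to 0.54 and that of ALPL from 0.25 to 0.37. In place of each near-identical gene, the summed counts gave 1.62, which lies outside the counting intervals of ALPG and ALPI and inside that of ALPP; by construction the sum joins a gene with a large difference to genes with smaller ones. The number of compared genes above 1, 689, and below -1, 1002, became 341 and 594 with a pseudocount of 5, 3771 and 2493 with no minimum beyond 1 count, 153 and 361 where a minimum of 50 counts was set, 270 and 446 when limited to protein-coding genes, and 79 and 190 if the whole interval had to lie past 1. TMM factors, total counts and a pseudocount of 0.1 left both within 1.5 times. Of 78 list medians under an alternative, 77 stayed within the median bounds of their members' intervals. The exception was the germ cell list with no minimum, at 1.01 in place of -0.32, where genes with a few counts enter. No paired analysis was possible because each group had 1 library. Depth limits ALPL and ALPP most, with 27 and 38 counts over both libraries.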

Other observations

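The genes nearest to ALPG in the 2 libraries, by the distance between pairs of log2(normalized count + 1) values, came from other chromosomes or from elsewhere on chromosome 2. NPHS1, which encodes nephrin of the kidney filtration barrier, was nearest at a distance of 1.12, with 56 and 241 counts and a log2 fold change of 2.11. SPECC1, a cytoskeletal protein gene, had 58 and 243 counts. EFR3B, a membrane anchor of a lipid kinase, had 59 and 225, and PCDH1, a protocadherin gene, had 43 and 177. All of these had a smaller log2 fold change than ALPG, between 1.94 and 2.11, and with 1 library per group likeness in 2 values is only a description.

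Around ALPL on chromosome 1, 17 other entries lay within 250 kb, of which 10 passed the count minimum, with a median log2 fold change of 0.072. Of the others, 4 had 0 counts in both libraries and 3 had fewer than 10 in all. Among the 10 compared, none was above 1 and 1 below -1, where 3.37% and 4.9% of all compared genes were. RAP1GAP, a GTPase-activating protein gene, was at -0.54 (-0.61 to -0.47) on the log2 scale, from 3876 and 2611 counts. NBPF3 had 331 and 480 counts, at 0.56 (0.36 to 0.77), and the pseudogenes NBPF2P and HS6ST1P1 were at 0.63 and 0.86, their counts uncertain because copies share reads. ECE1, the endothelin-converting enzyme gene, was at 0.099, USP48, a deubiquitinase gene, at 0.045, and HSPG2, the perlecan gene, at 0.026. LDLRAD2 had 5 and 7 counts, an unnamed antisense entry 7 and 6, and ECE1-AS1, the one below -1 at -1.72, had 9 and 2 counts with an interval that included 0 (-5.39 to 0.13).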
